A study of Mus musculus with 8 samples.

Results

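Hepatocytes are held in their differentiated state by a small set of transcription factors, and are recognised in turn by the plasma proteins they secrete. The 6 lineage factors Cebpa, Cebpb, Foxa1, Foxa2, Foxa3 and Prox1 and the 3 secreted products Alb, Ttr and Serpina1c were taken by gene symbol from the deposited expression table, where each stood on 1 row. They made up 9 of its 13703 rows, and all 9 passed the filter on low values that left 11077 rows for testing.

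Livers were compared between mice in which Cre recombinase is driven by albumin regulatory sequence (Alb-Cre Bicd2fl/fl, 4 libraries) and mice without Cre (Alb-WT Bicd2fl/fl, 4 libraries). Both groups carried loxP-flanked Bicd2, whose protein ties the dynein motor to the load it carries, and the albumin-driven Cre is directed at hepatocytes. Both groups had been given the autoimmune hepatitis model as well, by intraperitoneal injection of 2.5 mg of a soluble liver extract (S-100) in complete Freund's adjuvant once a week for 3 weeks. Bulk RNA was sequenced from whole liver collected 2 weeks after injections ended. Liver without the immunization was not analysed here, so each difference is one between immunized groups. Neither age nor sex of the mice is stated in the labels. No label states that the 4 libraries of a group came from separate animals, so p-values measure the spread between these libraries, which may be technical.

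C/EBPalpha and C/EBPbeta are basic leucine zipper factors that bind the same DNA motif. C/EBPalpha maintains the metabolic and secretory programme of the resting hepatocyte, while C/EBPbeta is better known from the acute phase response and liver regeneration. The FOXA proteins are pioneer factors that open chromatin at liver enhancers, and PROX1 is a homeodomain factor needed for hepatoblast migration that stays on in adult hepatocytes. Albumin is the main protein of plasma, and transthyretin carries thyroxine and retinol-binding protein. Serpina1c is one of several mouse copies of the gene of alpha-1-antitrypsin, a protease inhibitor.

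The promoters of Alb and Serpina1c are shown because they carry recognition motifs of the lineage factors measured here. Each window runs from 250 bases before to 50 bases after the RefSeq transcription start site on GRCm38.p6, Alb at chr5:90460620-90460919 on the plus strand and Serpina1c at chr12:103904901-103905200 on the minus strand. Capitals mark matches on either strand to the HNF1 half-site GTTAAT, the C/EBP motif TTNNGNAA, the FOXA motif TGTTTNC and the NF-Y box CCAAT.
Alb promoter: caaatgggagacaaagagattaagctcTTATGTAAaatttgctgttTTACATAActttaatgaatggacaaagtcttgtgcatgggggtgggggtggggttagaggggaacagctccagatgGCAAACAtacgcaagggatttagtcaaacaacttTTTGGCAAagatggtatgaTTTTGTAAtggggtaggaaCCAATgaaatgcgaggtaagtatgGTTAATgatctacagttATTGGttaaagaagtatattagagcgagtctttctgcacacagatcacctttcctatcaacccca
Serpina1c promoter: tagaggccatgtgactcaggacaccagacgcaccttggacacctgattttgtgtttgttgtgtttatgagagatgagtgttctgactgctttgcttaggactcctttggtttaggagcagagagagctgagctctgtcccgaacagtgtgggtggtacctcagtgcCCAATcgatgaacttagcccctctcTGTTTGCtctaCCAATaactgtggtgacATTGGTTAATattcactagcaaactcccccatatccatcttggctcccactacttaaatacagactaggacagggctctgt
The Alb window held 4 C/EBP matches, 1 FOXA match, 1 HNF1 half-site and 2 CCAAT boxes, with the C/EBP match nearest to the start site beginning at position -75 and the HNF1 half-site at -32. The Serpina1c window held no C/EBP match, 1 FOXA match beginning at -59, 1 HNF1 half-site at -27 and 3 CCAAT boxes, the last of which shares 1 base with the half-site. Short motifs are common: among 32851 RefSeq promoter windows of the same length, 40.7% held the C/EBP motif, 37.4% a CCAAT box, 20.5% the FOXA motif and 7.10% the HNF1 half-site. A match is a description of the letters and does not show that a factor binds there.

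Bicd2 fitted the labels of the libraries. Where 4 values are listed for a group they stand in the order of replicates 1 to 4. Bicd2 was 0.705, 0.568, 0.509 and 0.732 FPKM (fragments scaled by gene length and by the total of the library) in Alb-Cre, against 2.46, 3.02, 2.80 and 3.11 FPKM in Alb-WT livers. Its log2 fold change, on the log2(FPKM + 1) scale used for all fold changes, was -1.24 (SE 0.08, limma adjusted p = 7.25e-05). All 12 hepatocyte markers used to check the tissue were present, their sum being 12187 to 14919 FPKM over the Alb-Cre and 16727 to 17350 FPKM over the Alb-WT libraries, with 1 called higher, 3 lower and 8 not passing. Tat, an enzyme of tyrosine breakdown, was 906.2 to 994.6 FPKM in Alb-Cre against 1251 to 1355 FPKM in Alb-WT (limma adjusted p = 0.00399, and 0.0673 under median-of-ratios scaling), and Cps1, of the urea cycle, was 482.6 to 572.6 FPKM in Alb-Cre against 543.9 to 572.9 FPKM in Alb-WT (adjusted p 0.746). Whole fragments could be recovered from the FPKM steps and came to between 32524927 and 38893858 per library. Alb-Cre replicate 4 stood apart: across genes, its Pearson correlation on the log2 scale was 0.966 to 0.968 with the other Alb-Cre libraries and 0.98 to 0.982 with the Alb-WT libraries, against 0.995 to 0.997 among Alb-Cre replicates 1 to 3. The results on the 9 genes and on each gene list are therefore given with and without it. Without it, 2 of the 12 hepatocyte markers were called higher and 6 lower. Of all rows tested, 31.8% were called in either direction over all libraries and 61.3% without Alb-Cre replicate 4. The shares of hepatocyte markers called are thus near those of all rows in both fits.

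In the Alb-WT libraries the 9 genes covered a wide range of levels per length, from Alb, the highest of all 13703 rows at 24096 ± 277 FPKM, to Foxa1 at 2.66 ± 0.175 FPKM (SD, n = 4). Ttr ranked 17 and Serpina1c ranked 80 among all rows, and all 3 products stood above all 6 factors. Among the factors the order was Cebpa, Cebpb, Foxa3, Prox1, Foxa2 and Foxa1. No neighbours in this order overlapped over the Alb-WT libraries, and in the Alb-Cre libraries the only neighbours that overlapped were Prox1 and Foxa2.

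Of the 6 lineage factors, Cebpa and Foxa2 rose in Alb-Cre livers and none fell, while 0 of the 3 secreted products passed the limma test over all 8 libraries (0 at an unadjusted p under 0.05, and 0 with voom on recovered fragments). Over all rows tested, 8.48% were called higher and 23.3% lower in Alb-Cre, 31.8% in either direction, so 2 of 6 factors is a share near that of all rows. Without Alb-Cre replicate 4 the picture for these genes was another: Cebpa, Foxa2, Alb, Ttr and Serpina1c were called higher and Foxa3 and Prox1 lower, 4 of 6 factors and 3 of 3 products, where 15.2% of all rows were called higher, 46.1% lower and 61.3% in either direction. That fit used the FPKM as deposited and was run under no other scaling. The FPKM sum of a library was 438797 to 442133 over Alb-Cre replicates 1 to 3, against 399391 to 410679 in Alb-WT. The median log2 fold change was 0.02 for the factors and 0.05 for the products over all libraries, beside -0.13 for all rows tested. Without Alb-Cre replicate 4 it was 0.03 for the factors and 0.30 for the products, beside -0.16 for all rows. In bulk tissue, fewer cells of a type and less RNA per cell cannot be told apart.

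**Figure D1:**
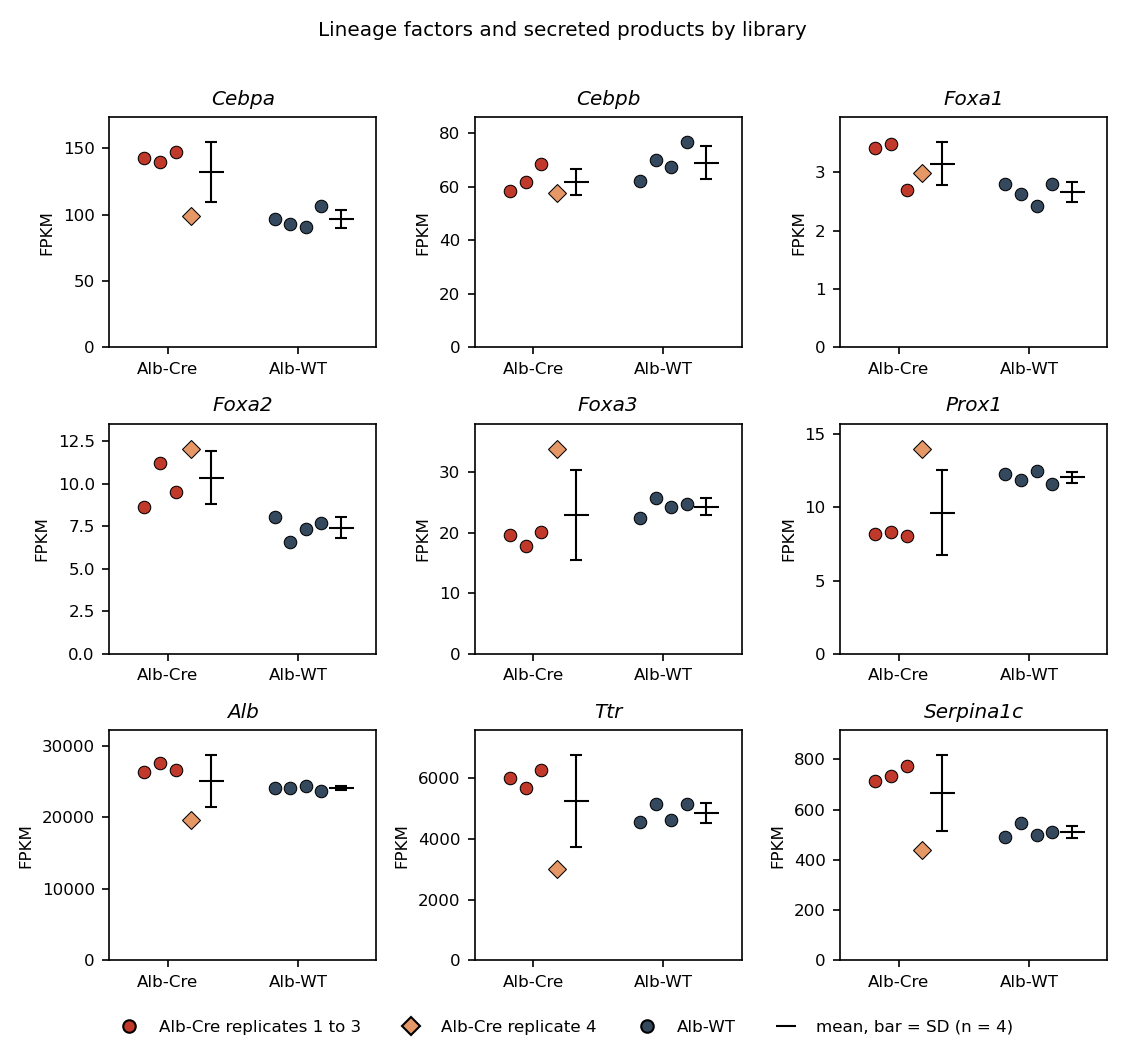
FPKM (y axis, from 0) of each of the 9 genes in every library, Alb-Cre left of Alb-WT, with the mean and SD of each group (n = 4) beside the points; the diamond is Alb-Cre replicate 4. Foxa2 is the only gene whose groups do not overlap, and the diamond lies outside all other 7 libraries in 7 of the 9 panels. Over all rows tested, Alb-Cre replicate 4 was above all other 7 libraries in 26% and below them in 12.6%.

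Cebpa, the factor that sustains the resting hepatocyte programme, stood at 142.9, 139.7, 147.0 and 98.8 FPKM in Alb-Cre livers, against 96.7, 93.0, 90.8 and 106.4 FPKM in Alb-WT livers. The first 3 Alb-Cre libraries were above every Alb-WT library and Alb-Cre replicate 4 lay inside the Alb-WT range. Its log2 fold change was 0.43 (SE 0.13), a rise from the limma fit with an adjusted p of 0.0337. The call was narrow: leaving out any of the 7 other libraries ended it (limma adjusted p 0.0508 to 0.0918), whereas leaving out Alb-Cre replicate 4 gave 0.56 (SE 0.06) with an adjusted p of 1.41e-05. Quantile normalization also ended it, at 0.30 (adjusted p 0.0601).

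Cebpb, the C/EBP factor of the acute phase, was 58.5, 61.9, 68.3 and 57.6 FPKM in Alb-Cre livers, against 62.2, 69.9, 67.3 and 76.6 FPKM in Alb-WT livers. The groups overlapped, and the log2 fold change of -0.16 (SE 0.08) did not pass the test (limma adjusted p = 0.165; -0.13 and 0.152 without Alb-Cre replicate 4). Scaling decided both its sign and its call, with 0.03 under median-of-ratios scaling (adjusted p 0.855), -0.25 with the FPKM sums made equal (0.0428) and -0.28 under quantile normalization (0.0203). Cebpb is also expressed in myeloid cells. For the 15 macrophage markers the sum was 366 to 374 FPKM over Alb-Cre replicates 1 to 3, with 1236 FPKM for replicate 4. In Alb-WT it was 1280 to 1317 FPKM. Of the 15 markers 14 were called lower, where 23.3% of all rows were. The part of macrophages in the Cebpb values was not tested.

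The ratio of Cebpb to Cebpa does not change when all genes of a library are multiplied by a common factor. Quantile normalization or removal of a trend with gene length can change it, and it was not computed under these. The genes have 1504 bases (Cebpb) and 2636 bases (Cebpa). The ratio was 0.410, 0.443, 0.465 and 0.583 in Alb-Cre livers, against 0.643, 0.752, 0.741 and 0.720 in Alb-WT livers. Every Alb-Cre library, replicate 4 included, was below every Alb-WT library. The mean log2 ratio was -1.09 ± 0.22 in Alb-Cre and -0.49 ± 0.10 in Alb-WT (SD, n = 4 each), a difference of -0.60 with a two-sided exact permutation p of 0.0286, the smallest that 70 assignments allow. Among all rows tested, 30.6% of single genes likewise had groups that did not overlap. With 1 library left out the difference ranged from -0.70, without Alb-Cre replicate 4, to -0.53, and the exact permutation p was 0.0286 or 0.0571.

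Foxa1, a pioneer factor of early liver development, was the lowest of the 9 genes, with 3.42, 3.48, 2.70 and 2.99 FPKM in Alb-Cre, against 2.80, 2.63, 2.43 and 2.80 FPKM in Alb-WT livers. It rested on 269 to 389 fragments per library. The groups overlapped through Alb-Cre replicate 3, and the log2 fold change of 0.18 (SE 0.08) did not pass the test (limma adjusted p = 0.126; 0.0616 without Alb-Cre replicate 4). It passed under 2 of the scalings, at 0.32 with median-of-ratios scaling (adjusted p 0.0381) and 0.37 with quantile normalization (0.0291).

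Foxa2, the pioneer factor tied to bile acid and lipid metabolism in adult liver, had 8.65, 11.2, 9.52 and 12.1 FPKM in Alb-Cre, against 8.07, 6.58, 7.34 and 7.71 FPKM in Alb-WT livers. It was the only member with no overlap between groups, and Alb-Cre replicate 4 was here the highest library of all. The rise of 0.42 (SE 0.11) had a limma adjusted p of 0.0196, and without Alb-Cre replicate 4 it was 0.35 with an adjusted p of 0.00579. The call was lost without Alb-Cre replicate 2, Alb-WT replicate 2 or Alb-WT replicate 3 (adjusted p 0.0533 to 0.0556) and with the FPKM sums made equal (0.35, adjusted p 0.0632). FOXA factors are also active in bile duct cells. Of the 8 cholangiocyte markers tested 4 were called lower, where 23.3% of all rows were. The sum of the 10 in the table was 323 to 348 FPKM over Alb-Cre replicates 1 to 3, with 619 FPKM for replicate 4. In Alb-WT it was 338 to 356 FPKM. Most of that sum came from the keratins Krt8 and Krt18, which hepatocytes also express. Without these 2 genes the sum of the other 8 was 37.7 to 42.3 FPKM over Alb-Cre replicates 1 to 3, with 63.7 FPKM for Alb-Cre replicate 4, against 80.7 to 93.7 FPKM in Alb-WT, so every Alb-Cre library was below every Alb-WT library. Their part in the Foxa2 values was not tested.

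Foxa3, the most abundant of the 3 Foxa genes here, had 19.6, 17.7, 20.2 and 33.9 FPKM in Alb-Cre livers, against 22.5, 25.7, 24.2 and 24.7 FPKM in Alb-WT livers. Alb-Cre replicates 1 to 3 were below every Alb-WT library and replicate 4 was above every one. The log2 fold change over all libraries was -0.13 (SE 0.18, limma adjusted p = 0.589), and 0.06 under median-of-ratios scaling. The fit without Alb-Cre replicate 4 gave -0.33 (SE 0.06, adjusted p 0.00119).

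Because Alb-Cre replicates 1 to 3 stood above the Alb-WT libraries for Foxa2 and below them for Foxa3, the mix of the 3 genes was also computed per library. Foxa1, Foxa2 and Foxa3 together came to 31.7, 32.4, 32.4 and 48.9 FPKM in Alb-Cre livers, against 33.3 to 35.2 FPKM in Alb-WT. Foxa2 made up 27.3%, 34.6%, 29.4% and 24.7% of that sum in Alb-Cre, against 24.2%, 18.8%, 21.6% and 21.9% in Alb-WT livers, without overlap although Alb-Cre replicate 4 and Alb-WT replicate 1 lay close. Foxa3 made up 61.9%, 54.7%, 62.3% and 69.2% in Alb-Cre, against 67.4%, 73.7%, 71.3% and 70.2% in Alb-WT, where Alb-Cre replicate 4 alone overlapped the Alb-WT range. These shares were not tested.

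Prox1, the homeodomain factor of hepatoblasts and adult hepatocytes, was the tightest of the factors within Alb-Cre replicates 1 to 3, at 8.20, 8.27 and 8.05 FPKM, with 14.0 FPKM for replicate 4. The Alb-WT livers had 12.3, 11.8, 12.4 and 11.6 FPKM, above the first 3 Alb-Cre libraries and below the last. Over all libraries the log2 fold change was -0.33 (SE 0.15) and did not pass the test (limma adjusted p = 0.127). Leaving out Alb-Cre replicate 4 gave -0.51 (SE 0.05, adjusted p 1.31e-05). Removing the trend with gene length gave -0.14 over all libraries (limma adjusted p = 0.394), and that was not done without Alb-Cre replicate 4. PROX1 also marks lymphatic endothelium. The 12 endothelial and lymphatic markers had a sum of 57.1 to 62.1 FPKM over Alb-Cre replicates 1 to 3, with 44.3 FPKM for Alb-Cre replicate 4, against 61.2 to 64.4 FPKM in Alb-WT. Their part in the Prox1 values was not tested.

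**Figure D2:**
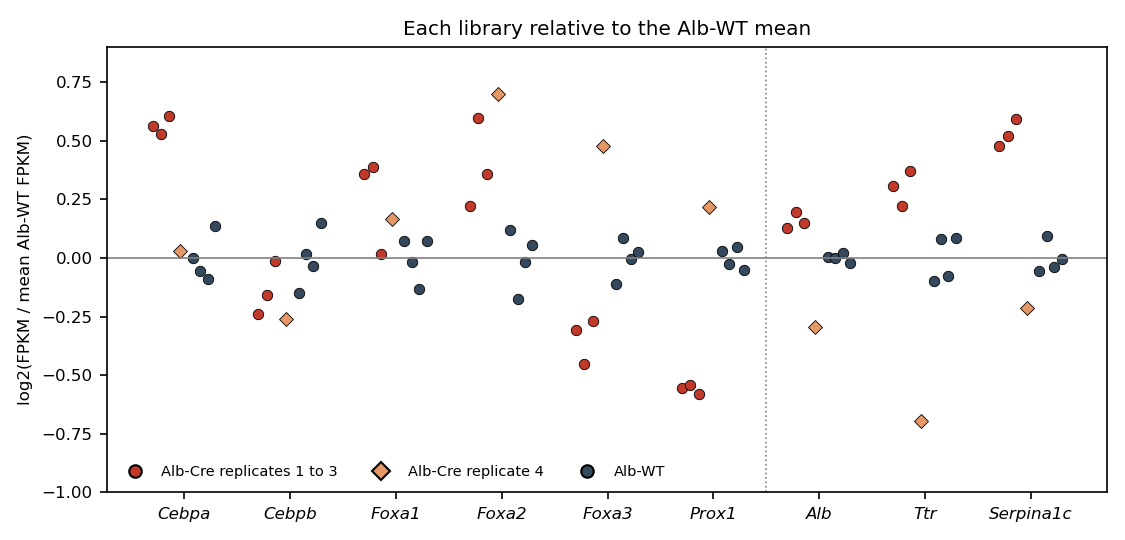
Each library's FPKM relative to the mean of the Alb-WT libraries (y axis, log2), Alb-Cre points left of Alb-WT points for each gene, lineage factors left and secreted products right of the dotted line. Alb-Cre replicate 4 (diamond) lies on the other side of 0 from Alb-Cre replicates 1 to 3 for Foxa3, Prox1, Alb, Ttr and Serpina1c, and on the same side for Cebpa, Cebpb, Foxa1 and Foxa2.

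Albumin mRNA was 26354, 27571, 26693 and 19621 FPKM in Alb-Cre livers, against 24147, 24074, 24419 and 23744 FPKM in Alb-WT livers. Alb-Cre replicates 1 to 3 were above every Alb-WT library and replicate 4 was below every one. The log2 fold change over all libraries was 0.04 (SE 0.15, limma adjusted p = 0.842), and -0.044 with the FPKM sums made equal. It was 0.16 without Alb-Cre replicate 4 (SE 0.04, adjusted p 0.00513). As a share of the summed FPKM of a library, Alb made up 5.96%, 6.26%, 6.08% and 4.91% in Alb-Cre, against 5.81% to 6.11% in Alb-WT, so on that scale Alb-Cre replicates 1 to 3 overlapped Alb-WT.

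Ttr, whose product carries thyroxine, was 6011, 5665, 6272 and 3000 FPKM in Alb-Cre livers, against 4541, 5136, 4601 and 5147 FPKM in Alb-WT livers. Alb-Cre replicate 4 had 0.618 of the Alb-WT mean, while Alb-Cre replicates 1 to 3 were all above the Alb-WT range. The log2 fold change of 0.05 (SE 0.23) did not pass the test (limma adjusted p = 0.870) and was below 0 with the FPKM sums made equal (-0.03), under quantile normalization (-0.28) and with the trend with gene length removed (-0.05). It was 0.30 (SE 0.06, adjusted p 0.00137) without Alb-Cre replicate 4.

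Serpina1c was 713.6, 734.8, 773.0 and 441.2 FPKM in Alb-Cre livers, against 493.1, 545.8, 498.4 and 510.8 FPKM in Alb-WT livers. Replicates 1 to 3 of Alb-Cre lay above and replicate 4 below all Alb-WT libraries. Over all libraries the log2 fold change was 0.35 (SE 0.17, limma adjusted p = 0.138), and without Alb-Cre replicate 4 it was 0.53 (SE 0.05, adjusted p 6.44e-06), the largest of the 3 products in that fit.

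The Serpina1c value carries a limit that the other 8 genes do not. Of its distinct 50-base transcript stretches in the GENCODE M21 annotation, 74.2% also occur in a paralogue, and of its 100-base stretches 58.5%, against 0% for each of the other 8 genes. Coding identity with Serpina1c was 98.5% for Serpina1a, 96.6% for Serpina1b, 96.7% for Serpina1d and 96.5% for Serpina1e. The labels do not say how reads that match several genes were counted. Coding bases 1101 to 1160 of 1242 are printed to show where the copies can be told apart, since this stretch encodes the reactive-site loop, the part of the protein that the protease attacks. The lines give the GENCODE M21 transcripts (GRCm38, chromosome 12), with capitals at the 18 positions where the 5 copies are not all the same, out of 86 such positions in the whole coding sequence.
Serpina1c: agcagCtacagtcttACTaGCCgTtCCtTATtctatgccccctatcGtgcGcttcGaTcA
Serpina1a: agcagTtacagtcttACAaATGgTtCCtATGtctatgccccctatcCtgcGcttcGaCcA
Serpina1b: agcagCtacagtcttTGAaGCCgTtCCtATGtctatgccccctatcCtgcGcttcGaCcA
Serpina1d: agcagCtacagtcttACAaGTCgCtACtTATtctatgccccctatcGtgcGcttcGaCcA
Serpina1e: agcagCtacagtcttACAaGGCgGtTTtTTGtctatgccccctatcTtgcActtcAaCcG

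The 5 copies stood in different proportions in the libraries. Serpina1c made up 4.78%, 4.68%, 4.82% and 5.44% of the summed FPKM of the family in Alb-Cre livers, against 3.62% to 3.82% in Alb-WT, so its share was higher in every Alb-Cre library. Serpina1e, the main copy, made up 62.3% to 63.4% over Alb-Cre replicates 1 to 3, with 43.2% for Alb-Cre replicate 4, against 65.5% to 67.2% in Alb-WT. For Serpina1b the share was 12.6% to 13.3% over Alb-Cre replicates 1 to 3, with 23.6% for Alb-Cre replicate 4, against 11.3% to 11.6% in Alb-WT. The family as a whole came to 14915, 15692, 16044 and 8108 FPKM in Alb-Cre, against 13633 to 14271 FPKM in Alb-WT. Serpina1e alone was 9290, 9890, 10169 and 3503 FPKM in Alb-Cre, against 9061 to 9354 FPKM in Alb-WT. Only Serpina1b of the other 4 copies passed the test, with a rise of 0.33 (limma adjusted p = 0.0169), a call lost without Alb-WT replicate 1 or 3 (adjusted p up to 0.0593) and under quantile normalization (0.338).

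**Figure D3:**
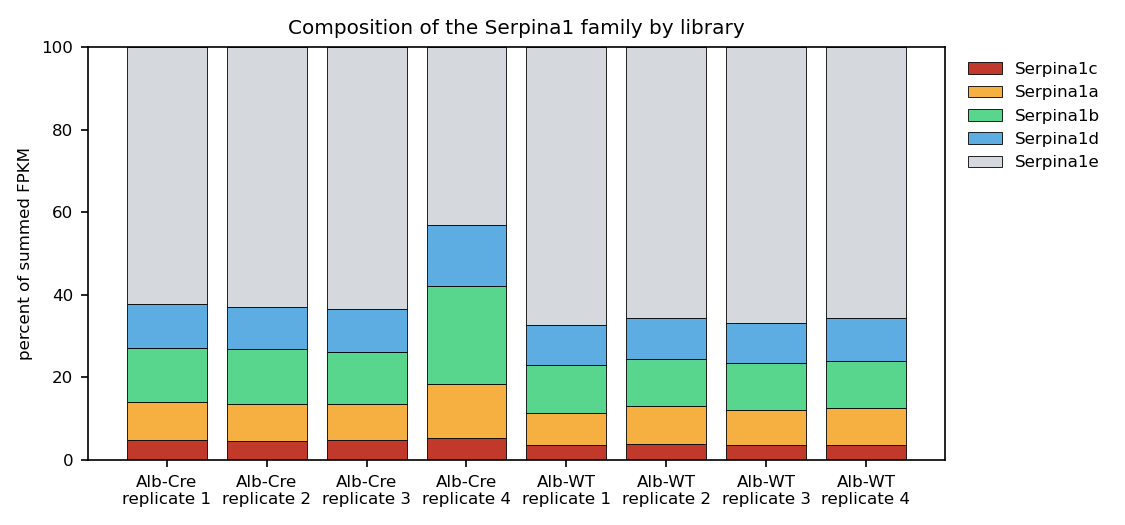
Share of each Serpina1 copy in the summed FPKM of the family (y axis, percent) for each library, Alb-Cre left of Alb-WT. Serpina1e is at 43.2% in Alb-Cre replicate 4 and between 62.3% and 67.2% in the other 7 libraries.

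Factors and products were set against each other within each library through the 18 ratios of a factor to a product. A common factor for all genes of a library cancels in these ratios, but a trend with gene length does not. That trend differed in sign between the groups. Spearman's correlation with gene length was -0.25 to -0.07 over the Alb-Cre and 0.07 to 0.27 over the Alb-WT libraries. Alb-Cre replicate 4 was above all other 7 libraries in 15 of the 18 ratios and below them in 0. Among single genes, it was above them in 26% of all rows tested and below them in 12.6%. Over all libraries 2 ratios had groups without overlap, both with Cebpa higher in Alb-Cre: the log2 difference was 0.39 for Cebpa over Alb and 0.38 for Cebpa over Ttr. Of single genes, 30.6% had no overlap over all libraries. When Alb-Cre replicate 4 was left out, 12 of the 18 had no overlap and 10 of these were lower in Alb-Cre. The share of all rows without overlap was not counted without that library, but 61.3% of all rows were called in the fit without it. Prox1 over Serpina1c differed most, with a log2 difference from the Alb-WT mean of -1.09 over Alb-Cre replicates 1 to 3 and 0.43 in replicate 4. These 2 genes differ in length, with 8390 bases for Prox1 and 1361 for Serpina1c. Removing the trend with gene length brought the log2 fold change over all libraries from -0.33 to -0.14 for Prox1. For Serpina1c it went from 0.35 to 0.27. In replicate 4 the largest departure was Foxa2 over Ttr, at 1.40. Since the members share numerators and denominators, the 18 ratios are not independent, and they were not tested.

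**Figure D4:**
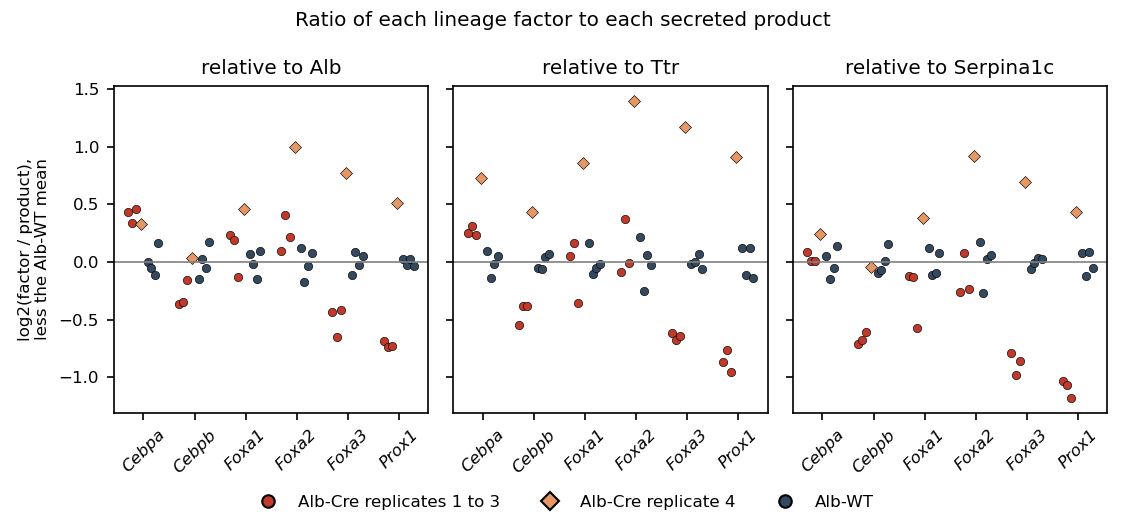
Log2 ratio of each lineage factor to Alb, Ttr and Serpina1c in each library, less the mean of the Alb-WT libraries (y axis), Alb-Cre points left of Alb-WT points. For Foxa3 and Prox1 the Alb-Cre replicates 1 to 3 lie below and the diamond, Alb-Cre replicate 4, above all Alb-WT libraries in all 3 panels.

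Other liver transcription factors moved in both directions. Of 37 tested, 5 rose, 8 fell and 24 did not pass the test, a share called near the 31.8% of all rows, with a median log2 fold change of -0.11 beside -0.13 for all rows. Onecut1, a partner of the FOXA factors in liver development, rose by 1.07 (limma adjusted p = 0.00152) from a low level, at 0.789 to 1.73 FPKM in Alb-Cre, against 0.0853 to 0.281 FPKM in Alb-WT. Xbp1, a factor of the unfolded protein response that supports secretion, was 77.0, 81.9, 76.0 and 125.4 FPKM in Alb-Cre, against 55.1 to 58.2 FPKM in Alb-WT (0.62, limma adjusted p = 0.0171). The circadian PAR-domain factors Dbp (0.78, adjusted p 0.0179) and Tef (0.42, adjusted p 0.0110) rose as well, with Alb-Cre replicate 4 the highest library for both. Among those that fell were Nr0b2, the nuclear receptor SHP that represses bile acid synthesis (-0.36, limma adjusted p 0.0133), Nfix (-0.37, adjusted p 0.0182) and Nfya, a subunit of the CCAAT-binding factor NF-Y (-0.42, adjusted p 0.0193). With Alb-Cre replicate 4 left out, 7 were called higher and 16 lower, again near the 61.3% of all rows called in that fit. Leaving out 1 library ended the call of Dbp (Alb-WT replicate 1, adjusted p 0.0545), of Nfix (Alb-WT replicate 3 or 4, up to 0.0512) and of Nfya (any library but Alb-WT replicate 1 or Alb-Cre replicate 4, up to 0.0555). Median-of-ratios scaling ended those of Nr0b2 (adjusted p 0.113) and Nfix (0.301), and quantile normalization those of Xbp1 (0.0555), Nfix (0.0988) and Nfya (0.0750). Removing the trend with gene length ended those of Nfix (-0.19, adjusted p 0.280) and Nfya (-0.24, 0.0662).

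Other secreted proteins of the liver mostly did not pass the test. Of 38 tested, 1 rose, 4 fell and 33 did not pass, with a median of -0.15 beside -0.13 for all rows. At an unadjusted limma p under 0.05 there were 14, and 31.8% of all rows were called. The one that rose was Serpina1b. Fetub, the gene of fetuin-B, which inhibits the egg protease ovastacin, fell to 235.8 to 311.8 FPKM in Alb-Cre, against 453.7 to 469.3 FPKM in Alb-WT (-0.80, limma adjusted p = 0.000747). Plg, the gene of plasminogen, fell by 0.35 (adjusted p 0.00711), Agt, the gene of angiotensinogen, by 0.41 (adjusted p 0.0127), and Hrg, the gene of histidine-rich glycoprotein, by 0.31 (adjusted p 0.0210). The call of Hrg was lost when any library other than Alb-Cre replicate 3 or 4 was left out (adjusted p up to 0.0664), and median-of-ratios scaling ended those of Plg (0.190), Agt (0.291) and Hrg (0.329). Without Alb-Cre replicate 4, 5 were called higher and 22 lower, where 15.2% of all rows were called higher and 46.1% lower. The 3 products described above, all called higher in that fit, were on the less frequent side of their class and of all rows alike.

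Of 13 fetal liver genes listed, Igf2, Dlk1, Igf2bp1, Igf2bp3, Lin28b and Hmga2 were not in the table, and 6 were tested. Of these 6, 1 rose, 4 fell and 1 did not pass, where 31.8% of all rows were called in either direction. H19, an imprinted noncoding RNA of fetal liver, was 1.54 to 2.32 FPKM in Alb-Cre, against 0.0581 to 0.136 FPKM in Alb-WT (1.44, limma adjusted p = 7.25e-05). Cd24a (-1.47, adjusted p 0.00201), Cpe (-0.98, adjusted p 0.00828) and Gpc3 (-0.81, adjusted p 0.00998) fell, and Alb-Cre replicate 4 was the highest Alb-Cre library for each of these 3. Without Alb-Cre replicate 4 the counts were again 1 higher and 4 lower, where 15.2% of all rows were called higher and 46.1% lower.

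Acute phase genes, which hepatocytes switch on in inflammation in part through C/EBPbeta, divided the Alb-Cre libraries. Of 20 tested, 3 rose, 2 fell and 15 did not pass, where 8.48% of all rows were called higher and 23.3% lower. In 18 of the 20, Alb-Cre replicate 4 was above all other 7 libraries, where 26% of all rows tested were. Saa2, which encodes serum amyloid A, was 1198, 1069, 1210 and 5093 FPKM in Alb-Cre, against 570.2 to 656.7 FPKM in Alb-WT (1.47, limma adjusted p = 0.0363), and its neighbour Saa1 was 1628, 1322, 1564 and 4447 FPKM in Alb-Cre, against 824.1 to 974.8 FPKM in Alb-WT (1.16, adjusted p 0.0318). Saa4, the constitutive member, rose by 0.29 (adjusted p 0.0196). Orm3, a copy of the orosomucoid genes, fell (-2.55, adjusted p 0.0253) at 4.85, 3.4, 4.85 and 52.5 FPKM in Alb-Cre, against 50.6 to 64.1 FPKM in Alb-WT, with replicate 4 inside the Alb-WT range. Hamp, the gene of the iron hormone hepcidin, fell by 0.37 (adjusted p 0.0466). The calls of Saa1, Saa2, Saa4, Orm3 and Hamp were each lost when 1 of several libraries was left out, with adjusted p up to 0.115. Quantile normalization ended those of Saa1 (0.0643), Saa2 (0.0616) and Saa4 (0.18, adjusted p 0.162), equal FPKM sums that of Saa4 (0.20, 0.113), and median-of-ratios scaling that of Hamp (-0.17, 0.462). The fit without Alb-Cre replicate 4 called 4 acute phase genes higher and 14 lower. In that fit 15.2% of all rows were called higher and 46.1% lower.

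Markers of other cell types moved with the same library. Beside the macrophage markers, the 8 neutrophil markers in the table had a sum of 110 to 120 FPKM over Alb-Cre replicates 1 to 3, with 1303 FPKM for Alb-Cre replicate 4, against 520 to 603 FPKM in Alb-WT, but that sum includes Lcn2, also an acute phase gene of hepatocytes, with 1213 FPKM in replicate 4. Without Lcn2 the sum of the other 7 was 7.46 to 7.79 FPKM over Alb-Cre replicates 1 to 3, with 90.4 FPKM for Alb-Cre replicate 4, against 267 to 329 FPKM in Alb-WT. S100a8 was 1.67, 1.55, 1.45 and 28.2 FPKM in Alb-Cre, against 67.7 to 102 FPKM in Alb-WT (limma adjusted p = 0.00550), and S100a9 was 4.44 to 49.5 FPKM in Alb-Cre, against 169 to 204 FPKM in Alb-WT (adjusted p 0.00321). Of the 7 neutrophil markers tested 6 fell, and Mpo, Ngp, Camp and Ltf were not in the table. The Kupffer cell genes Clec4f (41.5 to 72.2 FPKM in Alb-Cre, against 101 to 112 FPKM in Alb-WT, adjusted p 0.00237) and Vsig4 (21.6 to 31.8 FPKM in Alb-Cre, against 49.9 to 52.2 FPKM in Alb-WT, adjusted p 0.000716) fell. For the 12 lymphocyte markers in the table the sum was 12.4 to 13.1 FPKM over Alb-Cre replicates 1 to 3, with 68.6 FPKM for Alb-Cre replicate 4, against 21.2 to 24.9 FPKM in Alb-WT. Of the 8 tested, 0 passed the limma test over all libraries (2 at an unadjusted p under 0.05, and 1 called by voom on recovered fragments) and 7 were called lower without Alb-Cre replicate 4. Stellate cell markers had a sum of 48.0 to 50.5 FPKM over Alb-Cre replicates 1 to 3, with 62.2 FPKM for Alb-Cre replicate 4, against 75.5 to 82.2 FPKM in Alb-WT, with 1 of 11 called higher and 6 lower. Of the 11 endothelial markers tested 0 were called higher and 4 lower. Over all libraries, 8.48% of all rows tested were called higher and 23.3% lower. Without Alb-Cre replicate 4, 15 of 15 macrophage, 7 of 7 neutrophil, 8 of 11 stellate, 7 of 11 endothelial and 4 of 8 cholangiocyte markers were called lower, and 0, 0, 1, 2 and 2 of them higher. In that fit 46.1% of all rows were called lower and 15.2% higher, so the share of cholangiocyte markers called lower is near that of all rows. No value in the table was 0. The part of these cells in the values of the lineage factors and secreted products was not tested.

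**Figure D5:**
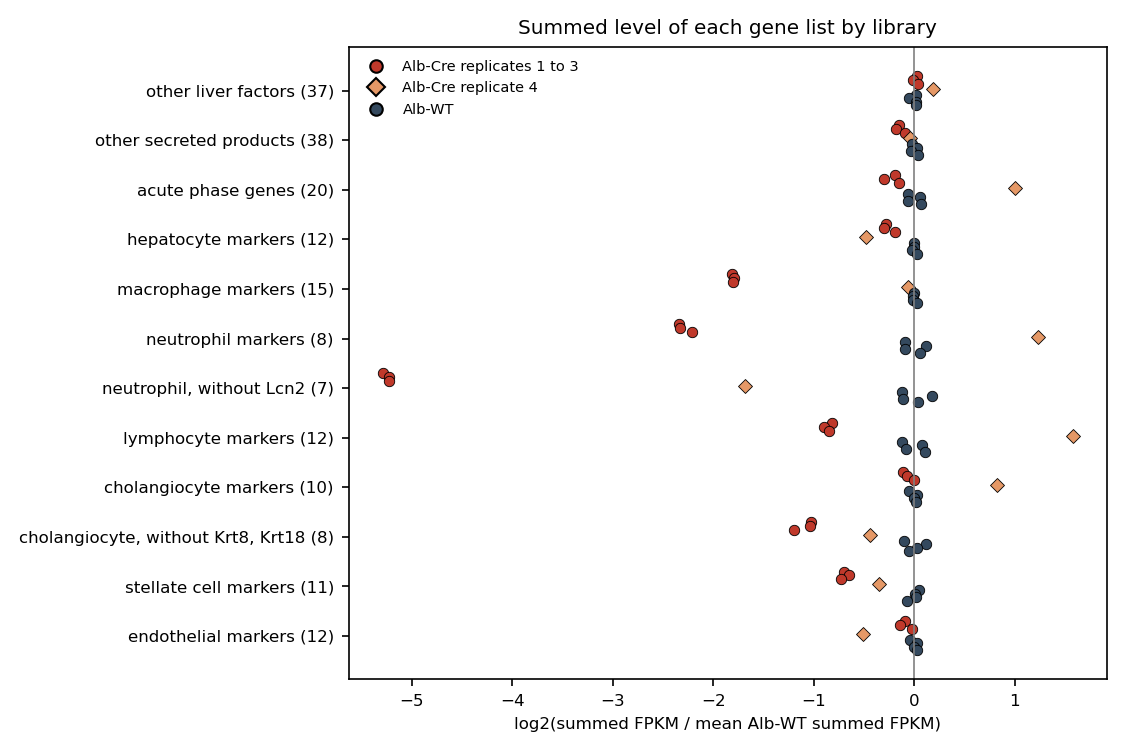
Summed FPKM of each gene list in each library relative to the mean of the Alb-WT libraries (x axis, log2), Alb-Cre points above Alb-WT points in each row and the number of genes in the table in brackets. Alb-Cre replicate 4 (diamond) lies right of the other 7 libraries for other liver factors, acute phase genes and lymphocyte markers. For neutrophil and cholangiocyte markers it is right of 0 with all genes and left of 0 without Lcn2 or without Krt8 and Krt18.

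The genes whose levels followed each member most closely over the 8 libraries were sought by the root mean square distance of centred log2(FPKM + 1) values. The mean of 4747 genes (4748 for Foxa1) reached 5 FPKM. Among these, unnamed gene models, pseudogenes and immunoglobulin or T cell receptor segments were skipped. On the same scale the members' own spread around their means ran from 0.126 (Foxa1) and 0.129 (Cebpb) to 0.314 (Ttr). Nearest to Cebpa were Ahsa1 (0.037) and Acaa2 (0.051), with Ahsa1 at 23.9, 23.6, 23.9 and 16.5 FPKM in Alb-Cre, against 15.6 to 17.0 FPKM in Alb-WT. Nearest to Cebpb were Cyp2d22 (0.061) and Btd (0.072), to Foxa1 Psma1 (0.058) and Yipf1 (0.061), and to Foxa2 Apip (0.050) and Tmed2 (0.073). Foxa3 was followed most closely by the acute phase gene Hp (0.056) and by Tubb5 (0.058), and Prox1 by Vmp1 (0.036) and Prpf4b (0.040). For the products these were Lpcat3 (0.036) and Acbd4 (0.038) beside Alb, Cisd1 (0.052) and Gsta3 (0.064) beside Ttr, and Psen2 (0.061) and C8b (0.061) beside Serpina1c. None of the 9 genes had another of the 9 among its nearest 2. The distances describe likeness over 8 libraries and were not tested.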

How the data were processed

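Bulk mouse liver RNA in 8 libraries was analysed as 1 deposited table. The values are FPKM, which the authors computed and deposited. Illumina libraries were prepared from Trizol-extracted RNA, per the labels' protocols. HISAT2 2.0.5 was used, per the submitters' processing notes, which list mm39 and hg38 with no role. Which counting tool, annotation and strand setting were applied, and how reads that match several genes were treated, is not given in the sources used here. Cebpa, Cebpb, Prox1 and Serpina1c overlap a gene on the opposite strand by 51, 312, 133 and 429 bases in GENCODE M21. The descriptions also name 10x Genomics, which a table with 1 column per library does not show.

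Groups and replicate numbers came from the titles. The members, gene lists and tests were chosen with earlier results of these data known. The FPKM steps gave whole fragments for 13703 of 13703 rows (100%, tolerance 1e-06), or 99.1% to 99.3% of each library's total, so the least covered member, Foxa1 (269 fragments), has a counting error of 6.10%. This covers counting error only. Every pair of libraries of a group differed by more than counting noise. log2(FPKM + 1) was fitted with limma 3.58.1 in R 4.3.3 (empirical Bayes with intensity trend, group alone as predictor) over the 11077 rows whose mean FPKM reached 0.5, with Benjamini-Hochberg adjustment over all of them and calls under 0.05. The pseudocount understates changes of low genes. Ratios were tested by exact two-sided permutation. The fit and the ratio test were tested on simulated data. The simulation of the fit held no outlying library such as Alb-Cre replicate 4 and no trend with gene length, so it does not cover these.

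Named genes were the 9 members and Bicd2; of other liver factors and secreted products up to 4 called genes per direction by smallest p; of fetal and acute phase genes up to 3; the first 2 listed genes of each marker list that are in the table; and the 2 genes most like each member. Serpina1e, other Serpina1 copies, Krt8, Krt18 and Lcn2 were named, and the last 3 left out of their lists in a second sum, after their values were seen. 1 gene that this rule names is not reported here. Alternatives changed the pseudocount to 0.1, the filter (none, or a mean of at least 5), the scaling (equal FPKM sums, median-of-ratios, quantile, trend with gene length removed), the test (voom on recovered fragments, no intensity trend) and a replicate block, and left out each library in turn. Same-numbered libraries did not deviate together (correlations -0.10 to 0.01, against -0.18 to 0.13 for differently numbered ones). Because Alb-Cre replicate 4 lies far from the rest of its group, these correlations cannot show whether the numbers mark a pairing. Other steps ran in Python 3.11.15 (Biopython 1.88, scipy 1.17.1, pandas 2.3.3, numpy 2.4.6, matplotlib 3.10.9). Promoters are RefSeq sequences of GRCm38.p6, and no sequence of Ttr is shown.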

Additional observations from a re-analysis of the deposited data

Results flagged for a closer look

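A library stood far from the other 3 of its group, by the gap to its nearest neighbour over the group's range, in 34 of 156 sets of 4 values examined, 29 of them in Alb-Cre. Chance alone flags about 1 in 20 of independent sets, but these sets are not independent. They include genes chosen for their likeness to a member, and shares and sums of the same genes. The count is a description and was not tested. In the Alb-Cre group the library was replicate 4 in each case that follows. For the members these were Cebpa at 98.8 FPKM and Alb at 19621 FPKM as low values, and Foxa3 at 33.9 FPKM and Prox1 at 14.0 FPKM as high ones. The sum of Foxa1, Foxa2 and Foxa3 was high at 48.9 FPKM. In the Serpina1 family the sum was low at 8108 FPKM, the Serpina1e share low at 43.2%, and the shares of Serpina1a (13.0%), Serpina1b (23.6%) and Serpina1d (14.7%) high.

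Among other genes, the low values were Onecut1 at 0.789 FPKM, Cps1 at 482.6 FPKM, Ahsa1 at 16.5 FPKM, Acbd4 at 6.09 FPKM, Gsta3 at 148.5 FPKM, Psen2 at 38.2 FPKM and C8b at 106.1 FPKM. High values were Tef at 6.25 FPKM, Xbp1 at 125.4 FPKM, Saa1 at 4447 FPKM, Saa2 at 5093 FPKM, Orm3 at 52.5 FPKM, Hp at 10364 FPKM, Vmp1 at 58.4 FPKM and Prpf4b at 7.29 FPKM. Marker genes of other cells with a high value were Vsig4 at 31.8 FPKM, S100a8 at 28.2 FPKM, S100a9 at 49.5 FPKM and Cd3e at 0.989 FPKM. In the Alb-WT group the values far from the rest were S100a9 at 203.6 FPKM, Krt7 at 0.444 FPKM, Tmed2 at 69.6 FPKM and Acbd4 at 7.42 FPKM as high values and Pecam1 at 2.99 FPKM as a low one.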

How the results depend on the processing

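Pseudocount, no filter, voom on recovered fragments and no intensity trend moved no member across the threshold, but voom called 11 of the 38 other secreted products, against 1 higher and 4 lower in the main setting. With a mean of at least 5 FPKM, 981 genes were lower and Foxa1 was not tested. With FPKM sums made equal, 623 genes were higher, Cebpb was -0.25 (adjusted p 0.0428), Foxa2 0.35 (0.0632), Alb -0.044, Ttr -0.034, Lpcat3 -0.059 and Gsta3 -0.032. Median-of-ratios scaling, which moved the median of all rows from -0.13 to 0.02, gave 1874 higher and 1516 lower, Cebpb 0.033, Foxa1 0.32 (0.0381), Foxa3 0.059, Cps1 0.16, Cyp2d22 0.022, Btd 0.071, Hp 0.027 and Tubb5 0.045. Quantile normalization gave 1554 higher and 1469 lower, Cebpa 0.30 (0.0601), Cebpb -0.28 (0.0203), Foxa1 0.37 (0.0291), Ttr -0.28, Lrat 0.013, Reln 0.092, Cisd1 -0.015 and Gsta3 -0.025. Removing the length trend gave 1503 lower, Ttr -0.047, Reln 0.12 and Cps1 0.12. Lower genes were 73.3% of calls in the main setting, 82.9% with equal sums, 44.7% with median-of-ratios, 48.6% with quantile, 51.8% with the length trend removed and 55.7% at a mean of at least 5. The causes were not tested.

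The replicate block left 613 genes higher, 1631 lower and 0 lineage factors called, with Cebpa at 0.43 (limma adjusted p 0.0777) and Foxa2 at 0.42 (0.0509). The Cebpb to Cebpa ratio was -0.60 (exact sign-flip p = 0.125, the smallest it allows). Whether the numbers pair the libraries could not be told. With 1 library left out, genes higher ranged from 546 to 1679, genes lower from 1205 to 5112, lineage factors called from 0 to 4 and secreted products called from 0 to 3, all with their highest value without Alb-Cre replicate 4. Log2 fold changes ranged from 0.37 to 0.56 for Cebpa, -0.21 to -0.11 for Cebpb, 0.14 to 0.23 for Foxa1, 0.35 to 0.50 for Foxa2, -0.33 to -0.027 for Foxa3, -0.51 to -0.26 for Prox1, -0.0064 to 0.16 for Alb, -0.052 to 0.30 for Ttr and 0.26 to 0.53 for Serpina1c, and the ratio from -0.70 to -0.53. Gsta3 ranged from -0.056 to 0.33, Lpcat3 from -0.023 to 0.12 and Cps1 from -0.059 to 0.023. Foxa1, at 269 to 389 fragments per library, is the member whose value depth limits most.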
